A study of Mus musculus with 3 samples.

Results

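The genes described here are 7 chemokine genes, Cxcl12, Cxcl10, Cxcl9, Ccl2, Ccl5, Cx3cl1 and Cxcl16, and Ackr3, the gene of a receptor that scavenges chemokines. They were chosen by symbol, and all 8 were among the 32285 genes of the matrices. Their transcripts were counted in single cells of the retina of C57BL/6JRj mice aged 3 (young), 12 (adult) or 23 months (old). Retinas from a pair of mice of each age were combined, enriched with magnetic beads for cells carrying CD31, a surface protein of endothelial cells, and made into 1 droplet library. The mice were untreated and carried no engineered allele. The 3 libraries thus stand for 1 age each, no test between ages was possible, and age and preparation cannot be told apart.

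Chemokines are small proteins that guide migrating leukocytes through receptors coupled to G proteins, and many are displayed on the inner surface of vessels. CXCL12 acts through CXCR4, and ACKR3 binds CXCL12 and takes it into the cell without signalling through G proteins, which shapes its gradient. CXCL9 and CXCL10 are induced by interferon and attract T cells through CXCR3, CCL2 attracts monocytes through CCR2, CCL5 attracts T cells and monocytes, and CX3CL1 and CXCL16 are ligands anchored in the membrane for CX3CR1 and CXCR6.

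Cxcl9 and Cxcl10 lie beside each other on chromosome 5 of GRCm38, Cxcl9 at 92321347 to 92328079 and Cxcl10 at 92346638 to 92348889, both on the minus strand and 18558 bases apart. The promoters of these interferon-induced neighbours are shown with that of Cxcl12, which was high in endothelial cells at every age. Each sequence runs from 250 bases before to 50 bases after the start of the gene on its own strand (RefSeq, GRCm38.p6). Capitals mark matches on either strand to GAAA, any 2 bases and GAAA (the interferon-stimulated response element, ISRE) or to GGGA, any 4 bases and CC (NF-kB).
Cxcl10, chr5:92348840-92349139, minus strand: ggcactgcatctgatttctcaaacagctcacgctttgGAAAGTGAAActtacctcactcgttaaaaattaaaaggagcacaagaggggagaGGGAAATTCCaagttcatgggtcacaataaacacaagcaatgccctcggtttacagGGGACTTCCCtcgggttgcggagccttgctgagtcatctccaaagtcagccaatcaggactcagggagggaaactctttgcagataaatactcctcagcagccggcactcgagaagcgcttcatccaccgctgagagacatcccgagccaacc
Cxcl9, chr5:92328030-92328329, minus strand: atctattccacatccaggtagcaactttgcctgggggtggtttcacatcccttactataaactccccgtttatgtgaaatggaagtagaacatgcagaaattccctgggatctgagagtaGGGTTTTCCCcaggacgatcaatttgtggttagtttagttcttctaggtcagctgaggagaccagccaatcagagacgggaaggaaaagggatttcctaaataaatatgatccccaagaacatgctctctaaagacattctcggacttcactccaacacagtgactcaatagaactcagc
Cxcl12, chr6:117168285-117168584, plus strand: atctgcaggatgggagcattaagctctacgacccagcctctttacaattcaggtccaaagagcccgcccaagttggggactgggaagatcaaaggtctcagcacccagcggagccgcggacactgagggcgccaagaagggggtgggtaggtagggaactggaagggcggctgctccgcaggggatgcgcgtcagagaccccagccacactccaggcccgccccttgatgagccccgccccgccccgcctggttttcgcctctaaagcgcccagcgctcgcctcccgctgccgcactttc
The Cxcl10 window held an ISRE match and a pair of NF-kB matches, the Cxcl9 window 1 NF-kB match, and the Cxcl12 window no match to these letters. Of 32851 promoter windows of the same length, 3.44% held the ISRE letters and 20.7% the NF-kB letters. These matches describe letters and not occupied sites.

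Cells were kept with 500 to 6000 genes and 1 to 20% mitochondrial UMIs (unique molecular identifiers, each standing for 1 captured transcript), which left 1705 young, 1957 adult and 1701 old cells with a median of 6353, 5964 and 6296 UMIs. Classes were rebuilt from markers and are endothelial-like, pericyte-like and so on, written below without the ending. Endothelial cells, named from 9 markers, numbered 435, 420 and 406. Another 315, 250 and 219 droplets carried endothelial and pericyte markers together and are called mixed. Their median depth was 13653, 15029.5 and 14815 UMIs, against 5643, 6089 and 7561 in endothelial cells and 3979.5, 3950 and 4644.5 in pericytes. Pericytes, smooth muscle cells, Müller glia, bipolar cells, rods and cones also reached 30 cells in each library. Of the cell barcodes kept, 2 were shared between the adult and the old library. Levels are a gene's UMIs per 1000000 UMIs of the class (CPM), with exact 95% Poisson intervals, ratios carry exact conditional and shares Clopper-Pearson intervals, and all of them cover counting error only.

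Cxcl12, the ligand that retains CXCR4-bearing cells, was most abundant in endothelial cells in all 3 libraries. Its level there was 4341 CPM (4269 to 4414) in young cells, 4883 (4809 to 4958) in adult cells and 3633 (3572 to 3695) in old cells, from 13863, 16454 and 13400 UMIs. The adult library was highest and the old lowest, with intervals that did not overlap. The median endothelial droplet held 25, 27 and 26 Cxcl12 UMIs. Mixed droplets followed with 2940, 3470 and 3196 CPM. Droplets with endothelial and erythroid markers together, 22, 24 and 20 in number, held 2030, 3191 and 1727 CPM. Cells in unnamed clusters held 1046 CPM over the 3 libraries (1005 to 1088), and the largest of these clusters carried endothelial markers at low depth.

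Young pericytes held 492 CPM of Cxcl12 (442 to 547), adult pericytes 466 (412 to 526) and old pericytes 573 (509 to 643). Set against endothelial cells of the same library, these levels were 11.3, 9.54 and 15.8%. The 9 endothelial markers summed in pericytes to 6.26, 7.10 and 8.12% of their endothelial level, and the part of endothelial RNA in the pericyte value was not tested. Smooth muscle cells, the other mural cells, held 16.3, 29.1 and 33.4 CPM from 5, 9 and 12 UMIs.

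Shares of cells with a UMI were compared after thinning to 2000 UMIs, which left out shallower cells, among them 11, 22 and 4 endothelial cells, 18, 22 and 18 pericytes and 62, 106 and 94 rods. Of endothelial cells, 90.8, 93.5 and 88.3% had Cxcl12 (young, adult, old), against 52.0, 51.4 and 45.3% of pericytes and 0, 0 and 8.11% of smooth muscle cells. Mixed droplets, at 89.5, 89.2 and 91.8%, overlapped endothelial cells in their intervals. Without thinning the endothelial shares were 95.6, 96.9 and 94.1%. Rods, which should lack the gene, gave a thinned background of 0.952, 0 and 2.10%. Before thinning, the median depth was 5643, 6089 and 7561 UMIs in endothelial cells and 2283, 2422 and 2161 in rods.

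**Figure D1:**
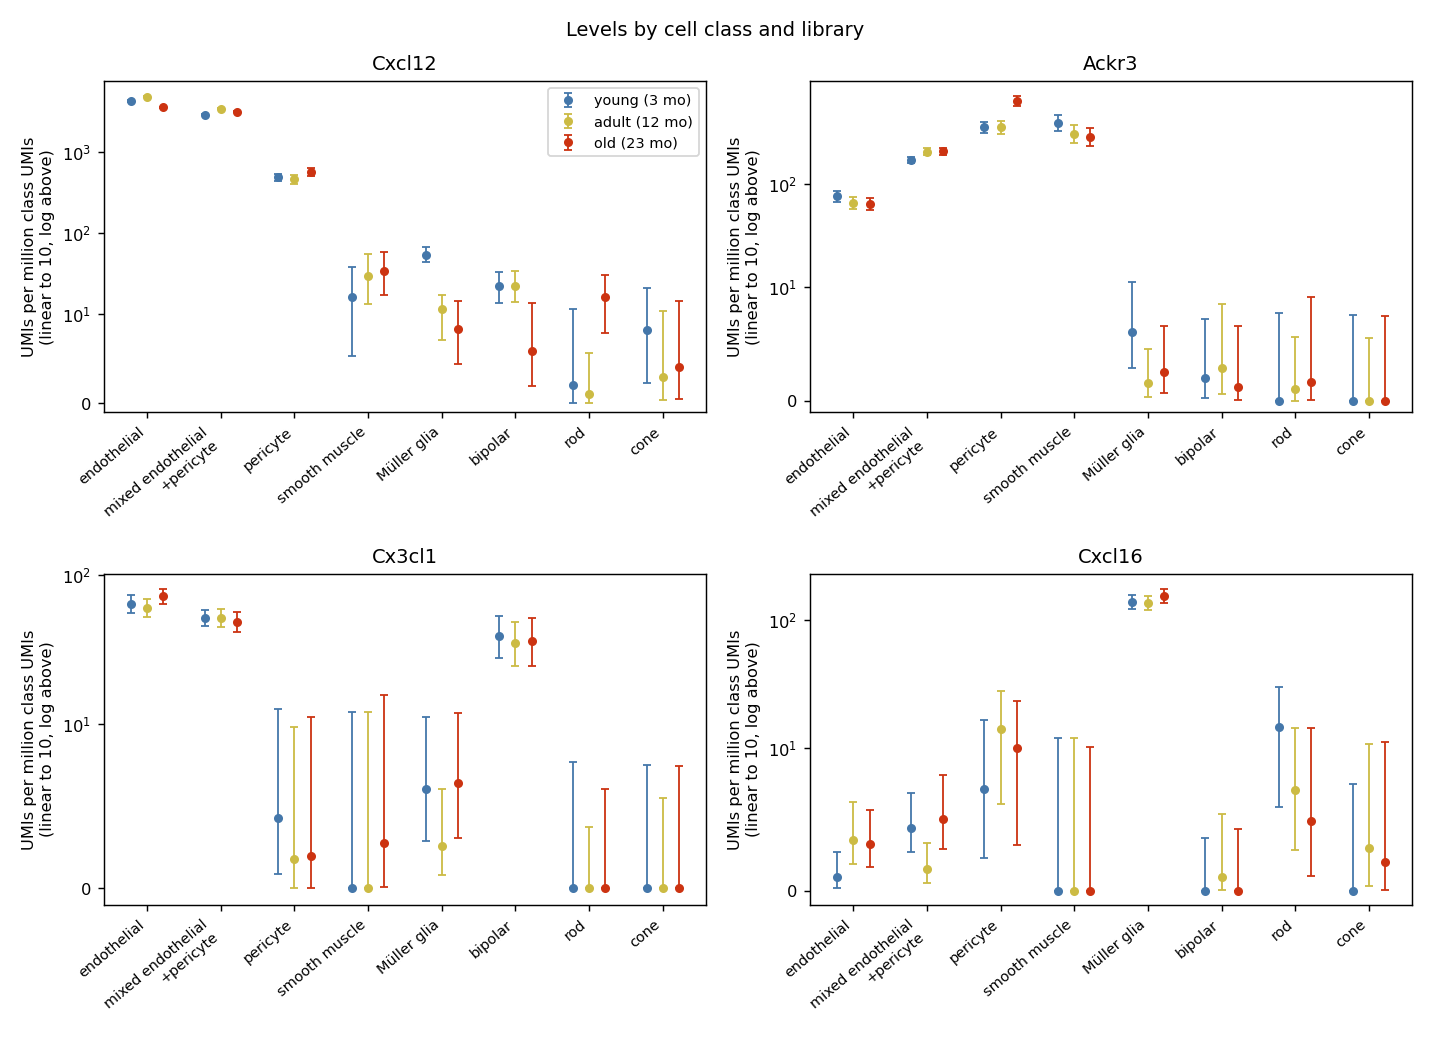
Levels of Cxcl12, Ackr3, Cx3cl1 and Cxcl16 (CPM of the class, linear to 10 and logarithmic above) by cell class, with 1 point per library and 95% Poisson intervals. Cxcl12 was highest in endothelial cells, Ackr3 in pericytes and smooth muscle cells, and Cxcl16 in Müller glia, while Cx3cl1 stood out in endothelial and bipolar cells.

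**Figure D2:**
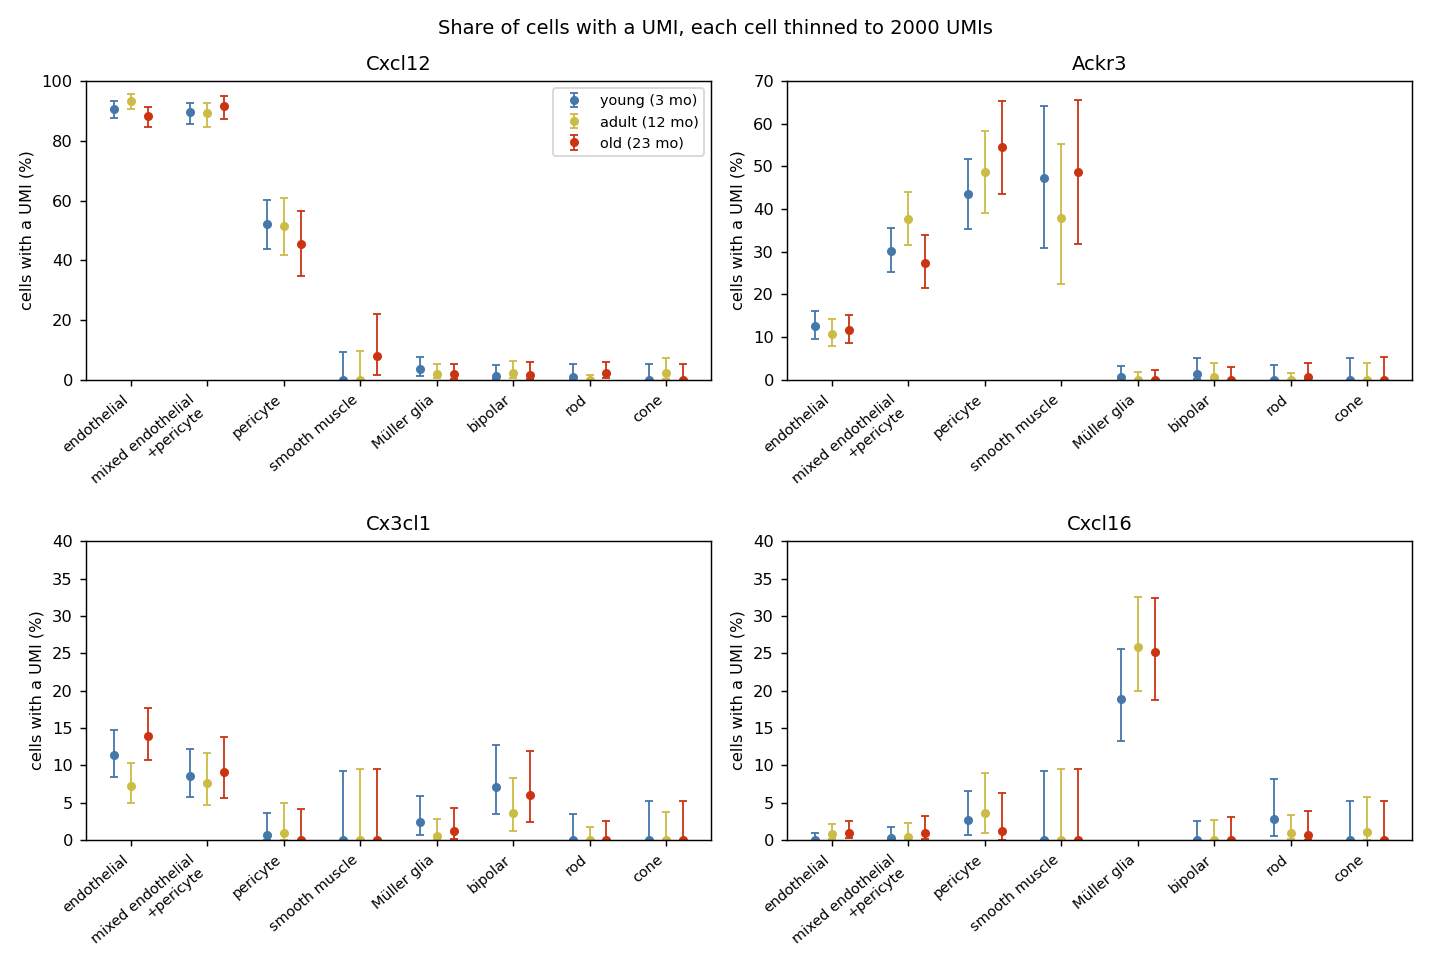
Percent of cells with a UMI of each gene after thinning to 2000 UMIs per cell, with 1 point per library and 95% Clopper-Pearson intervals. Shares of endothelial cells with Cxcl12 lay between 88.3 and 93.5%, and shares of Müller glia with Cxcl16 between 18.8 and 25.9%.

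Endothelial cells were clustered again without these genes among the features. A cluster of 289 cells had 9 of 11 arterial markers and is called arterial-like, and a cluster of 74 cells had 4 of 4 venous markers and is called venous-like. The largest cluster (cluster 0), of 511 cells, reached no threshold of the arterial, venous, capillary or tip markers. Its leading genes by fold were the myeloid genes S100a8, S100a9 and Lyz2, found in 3, 3 and 17 of the 511 cells. Cluster 2, at a median of 3417 UMIs, was led by Cxcl10, all of it in 1 of 220 cells, and by rod genes. Cluster 3 was led by Plvap, found in 2 of 167 cells, and by pericyte genes such as Vtn, found in 144. The part of other cell types in these clusters was not tested.

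Within each library Cxcl12 was highest in clusters 0 or 2 and lowest in the venous-like cluster. Cluster 0 held 5427, 6154 and 5040 CPM in the young, adult and old library. The arterial-like cluster held 3025, 3201 and 2420 CPM, and the venous-like cluster 913, 1857 and 850. In each library the order was thus cluster 0, arterial-like and venous-like. Cluster 0 exceeded the venous-like cluster 5.94-fold (5.25 to 6.75) among young cells, 3.31-fold (3.05 to 3.60) among adult cells and 5.93-fold (5.33 to 6.61) among old cells. The venous-like values rest on 22, 23 and 29 cells.

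The ratio of old to young Cxcl12 was 0.837 (0.817 to 0.857) in the endothelial class, 0.929 (0.899 to 0.959) in cluster 0, 0.800 (0.755 to 0.847) in the arterial-like and 0.931 (0.791 to 1.10) in the venous-like cluster. Cluster 2 stood at 0.877 (0.801 to 0.961) and cluster 3 at 1.00 (0.937 to 1.07), an interval that includes 1. Cluster 0 made up 229 of 435 young and 138 of 406 old cells, and the arterial-like cluster 83 and 117. When the old clusters were weighted as in the young library, old endothelial Cxcl12 was 3978 CPM in place of 3633. The ratio was 0.973 (0.956 to 0.990) when mixed droplets were counted as endothelial, and in the mixed droplets alone it was 1.09 (1.06 to 1.12). Of the 1261 endothelial cells, 808 carried markers of another class, and without them the ratio was 0.918 (0.879 to 0.958).

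**Figure D3:**
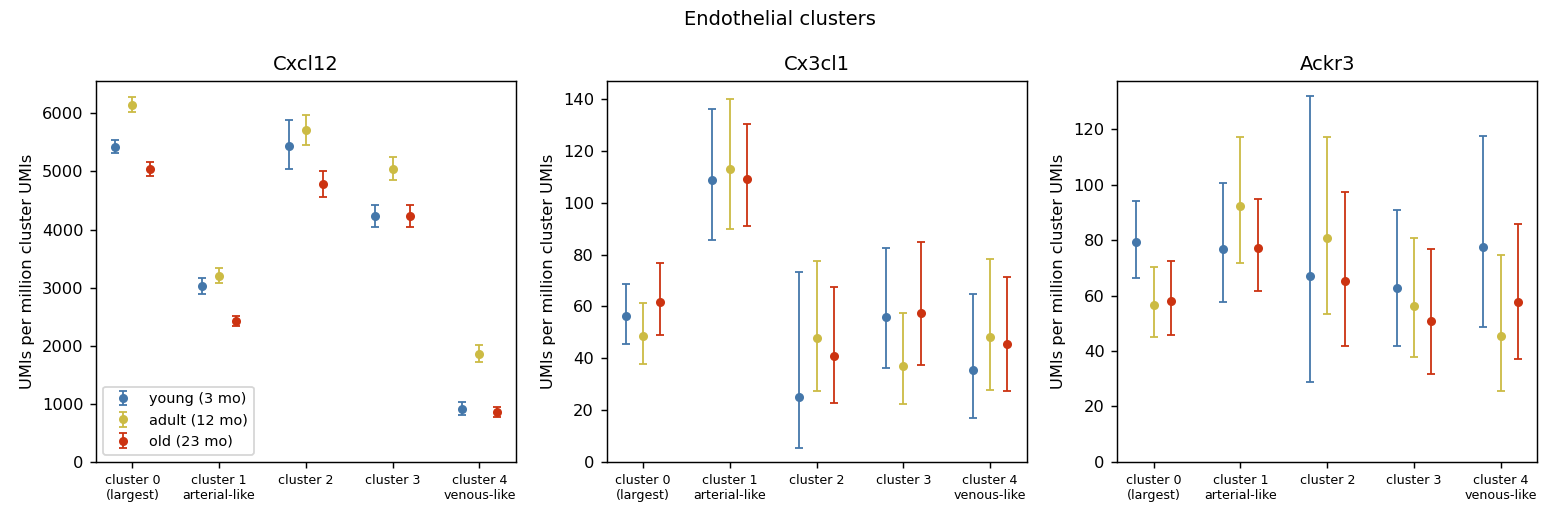
Cxcl12, Cx3cl1 and Ackr3 (CPM of the cluster, linear axes from 0) in 5 endothelial clusters, with 1 point per library and 95% Poisson intervals. Cxcl12 was lowest in the venous-like cluster (850 to 1857) and Cx3cl1 was highest in the arterial-like cluster (109 to 113).

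Müller glia, the main glial cells of the retina, held 53.9 CPM of Cxcl12 (43.3 to 66.3) at the young age, against 11.3 (7.11 to 17.2) in adult and 8.32 (4.43 to 14.2) in old cells. The young value lay above the others, but 84 of its 89 UMIs were in 7 of 179 droplets. Those 7 droplets held 5 to 17 Cxcl12 UMIs each. All 7 had more than 10% mitochondrial UMIs (10.7 to 18.0%), 6 carried both Gfap and Pdgfra, genes of astrocytes and glial precursors, and 5 carried Pax2, a marker of retinal astrocytes that over the class stood at 10.9 CPM in young and at 0 in adult and old cells. Igf2, another gene on the astrocyte list, had 0 to 6 UMIs in each of the 7. Over the class it stood at 122, 116 and 95.9 CPM in young, adult and old cells. Over the whole class, the 9 endothelial markers summed in Müller glia to 9.15, 8.60 and 8.81% of their endothelial level (young, adult, old). The 7 droplets themselves held 0 or 1 UMIs of the endothelial gene Cldn5 and 0 to 36 of the pericyte gene Rgs5. The part of endothelial or pericyte RNA was not tested. No adult or old Müller droplet held 5 Cxcl12 UMIs, and over the class Gfap was 97.5 CPM at the young and 18.5 at the old age. With at least 1000 genes and at most 10% mitochondrial UMIs the old to young ratio turned from 0.154 (0.0790 to 0.277) to 2.40 (0.691 to 10.5). The droplets were picked out after their values had been seen, and the part of astrocytes or of RNA quality was not tested. Elsewhere, single droplets held 141 of 151 Cxcl12 UMIs in the adult mixed immune cluster and all 24 in old amacrine cells.

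Ackr3, the scavenging receptor for CXCL12, was highest in mural cells. Young pericytes held 355 CPM (312 to 402), adult pericytes 355 (308 to 408) and old pericytes 637 (569 to 711). Smooth muscle cells held 390 (323 to 466), 307 (248 to 375) and 287 (234 to 348). Endothelial cells had 75.8, 65.6 and 63.7 CPM, so that pericytes exceeded them 4.69-fold (3.91 to 5.62), 5.42-fold (4.45 to 6.58) and 10.0-fold (8.42 to 11.9). Pericytes and smooth muscle cells did not differ beyond counting error in the young or adult library, whereas in the old library pericytes were 2.22-fold higher (1.77 to 2.80).

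Rods and cones held 0 to 1 Ackr3 UMIs per library, and Müller glia and bipolar cells 1 to 10. After thinning, 43.4, 48.6 and 54.7% of pericytes and 12.5, 10.8 and 11.7% of endothelial cells had a UMI, against 0, 0 and 0.699% of rods. Without thinning the shares were 58.8, 59.4 and 70.2% of pericytes and 33.6, 32.4 and 33.3% of endothelial cells. The thinned shares of the 3 pericyte libraries overlapped in their intervals. Cxcl12 and Ackr3 were found in the same droplet in 142 of 435 young, 132 of 420 adult and 131 of 406 old endothelial cells. Cxcl12 alone was found in 274, 275 and 251, Ackr3 alone in 4, 4 and 4, and neither in 15, 9 and 20. Because most endothelial cells had Cxcl12, the shared count mainly follows the share of cells with Ackr3. Among endothelial clusters Ackr3 stood at 76.8, 92.4 and 77.0 CPM in the arterial-like cluster and 79.2, 56.7 and 58.0 in cluster 0, and the pair differed beyond counting error in the adult library alone (1.63-fold, 1.16 to 2.27).

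In pericytes the ratio of old to young Ackr3 was 1.79 (1.51 to 2.13), from 319 and 248 UMIs. This was 1 of the 2 genes with at least 20 UMIs there, and over all pericyte genes 13.3% were higher and 8.85% lower by at least 1.5-fold. Without the richest droplet of each library the ratio was 1.82 (1.53 to 2.17), and thinning to 2000 UMIs gave 1.48 (1.11 to 1.95), under 1.5-fold. Mixed droplets held 171, 206 and 207 CPM of Ackr3, and their ratio of old to young was 1.21 (1.09 to 1.34), not past the fold. In smooth muscle cells the ratio was 0.735 (0.559 to 0.965), not past the fold. There 15.3% of genes were higher and 9.55% lower. After thinning it was 1.22 (0.704 to 2.15), on the other side of 1. The summed pericyte markers in smooth muscle cells fell from 26.4% of their pericyte level at the young to 13.8% at the old age, and their part was not tested.

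Cx3cl1 encodes fractalkine, the membrane-anchored ligand of the microglial receptor CX3CR1. It stood at 64.5 CPM in young (56.0 to 73.9), 60.5 in adult (52.5 to 69.4) and 72.1 in old endothelial cells (63.7 to 81.3), from 206, 204 and 266 UMIs. Bipolar cells, interneurons of the retina, held 38.9 (27.7 to 53.2), 34.9 (24.4 to 48.3) and 36.3 CPM (24.6 to 51.5). Rods and cones held no UMI in any library. A floor of 3 counts stands at 6.23, 3.02 and 4.89 CPM in rods, and the exact upper limits lie above it. The endothelial level was 1.66-fold (1.17 to 2.40), 1.74-fold (1.21 to 2.55) and 1.99-fold (1.37 to 2.98) that of bipolar cells. The endothelial ratio of old to young was 1.12 (0.929 to 1.35). After thinning, 11.3, 7.29 and 13.9% of endothelial and 7.09, 3.62 and 5.98% of bipolar cells had a UMI, against 0% of rods. Amacrine cells, fewer than 30 per library, held 4, 6 and 9 UMIs (41.0, 56.5 and 61.4 CPM).

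Within the endothelium Cx3cl1 ran opposite to Cxcl12 between cluster 0 and the arterial-like cluster. The arterial-like cluster held 109, 113 and 109 CPM at the young, adult and old age, and cluster 0 held 56.2, 48.5 and 61.8. The arterial-like level was 1.93-fold (1.41 to 2.65), 2.33-fold (1.68 to 3.25) and 1.77-fold (1.33 to 2.37) that of cluster 0. The venous-like cluster held 35.3, 48.3 and 45.6 CPM from 10, 16 and 19 UMIs, within counting error of cluster 0.

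Cxcl16, a transmembrane chemokine that also acts as a scavenger receptor, was highest in Müller glia. Young Müller glia held 139 CPM (121 to 158), adult ones 136 (120 to 153) and old ones 154 (135 to 175), from 229, 263 and 241 UMIs. Endothelial cells held 0.939, 3.56 and 3.25 CPM from 3, 12 and 12 UMIs. Pericytes held 7.16, 14.1 and 9.98 CPM, and rods 14.5, 7.04 and 4.89. Against rods, the Müller level was 9.54-fold (4.56 to 24.0), 19.3-fold (9.23 to 48.4) and 31.6-fold (10.7 to 154) higher. After thinning, 18.8, 25.9 and 25.1% of Müller glia had a UMI against 2.86, 0.926 and 0.699% of rods, and without thinning 62.6, 62.3 and 49.3%. Old over young Cxcl16 came to 1.11 (0.924 to 1.34), but to 1.65 (1.05 to 2.60) after thinning, which gives every cell it keeps the same weight and left out 9 of 179 young and 40 of 207 old Müller glia.

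Cxcl10, Cxcl9, Ccl2 and Ccl5 were found in very few droplets. Cxcl10, the interferon-induced ligand of CXCR3, had 76 UMIs in 9 of 1705 young, 35 in 10 of 1957 adult and 817 in 16 of 1701 old cells. The old total stood above the others, whereas the shares of cells were 0.528% (0.242 to 1.00), 0.511% (0.245 to 0.938) and 0.941% (0.539 to 1.52), with overlapping intervals. The richest old droplet held 679 of the 817 UMIs (83.1%), and the next held 102.

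In endothelial cells Cxcl10 had 1, 19 and 111 UMIs (0.313, 5.64 and 30.1 CPM). It was the 1 gene past 1.5-fold of the 4 with at least 20 UMIs, at an old to young ratio of 96.1 (16.9 to 3830), while 7.23% of all endothelial genes were higher and 5.47% lower. Of the 111 old UMIs, 102 were in 1 droplet. Without the richest droplet of each library 9 UMIs remained in the old, 9 in the adult and 0 in the young library, at least 2.58-fold higher in old than young cells against a floor of 3 counts. Old and adult cells then stood at a ratio of 0.909 (0.320 to 2.58), where all droplets had given 5.34 (3.26 to 9.20).

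From young to adult endothelial cells Cxcl10 was likewise the 1 of 4 genes past the fold, at 18.0 (2.86 to 748), beside 5.46% of all genes higher and 3.7% lower. A single droplet held 10 of the 19 adult UMIs, and with mixed droplets counted as endothelial the ratio turned to 0.952. From adult to old it was 1 of 5, beside 4.93% higher and 5.37% lower. In mixed droplets 3 of 7 genes were past the fold from young to old, all higher, beside 5.72% of all genes higher and 5.16% lower. These were Cxcl10 at 34.3 (23.3 to 52.4), Cxcl9 at 56.0 (18.7 to 275) and Ccl2 at least 8.95-fold against the floor, and all 3 rest on the richest droplet. Without it, Cxcl9 and Ccl2 had none in old mixed droplets, and Cxcl10 had 10 old UMIs (2.99 CPM) against 27 young ones (5.98 CPM), so that the old library stood lower. With the richest young droplet left out as well, 10 old and 3 young UMIs were left, and the ratio was 4.47 (1.15 to 25.3).

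That droplet was an old mixed one of 16453 UMIs. It held 679 UMIs of Cxcl10, 125 of Cxcl9 and 20 of Ccl2, and thus 125 of the 126 old UMIs of Cxcl9 and 20 of the 21 of Ccl2. It also held 205 UMIs of Rsad2, 154 of Isg15, 89 of Ifit1, 81 of Gbp2 and 31 of Irf7, all genes induced by interferon, with 54 of the pericyte gene Rgs5 and 3 of the endothelial gene Cldn5. The endothelial droplet with 102 Cxcl10 UMIs had 107 of Rsad2 and 34 of Isg15, and 0 of Cxcl9 and Ccl2. Of the 12 genes that led each droplet over the rest of its class, the pair shared 5, namely Cmpk2, Cxcl10, Ifit2, Igtp and Rsad2.

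Droplets rich in Cxcl10 were not all alike. A young mixed droplet with 24 Cxcl10 UMIs also held 102 of Isg15 and 57 of Rsad2. A young Müller droplet with 39 Cxcl10 UMIs held 0 of Isg15 and 1 of Rsad2, and it is 1 of the 7 Müller droplets rich in Cxcl12 described above. An old Müller droplet with 12 Cxcl10 UMIs held 1 of Isg15 and was led by Hmox1. These droplets were chosen after their values had been seen.

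**Figure D4:**
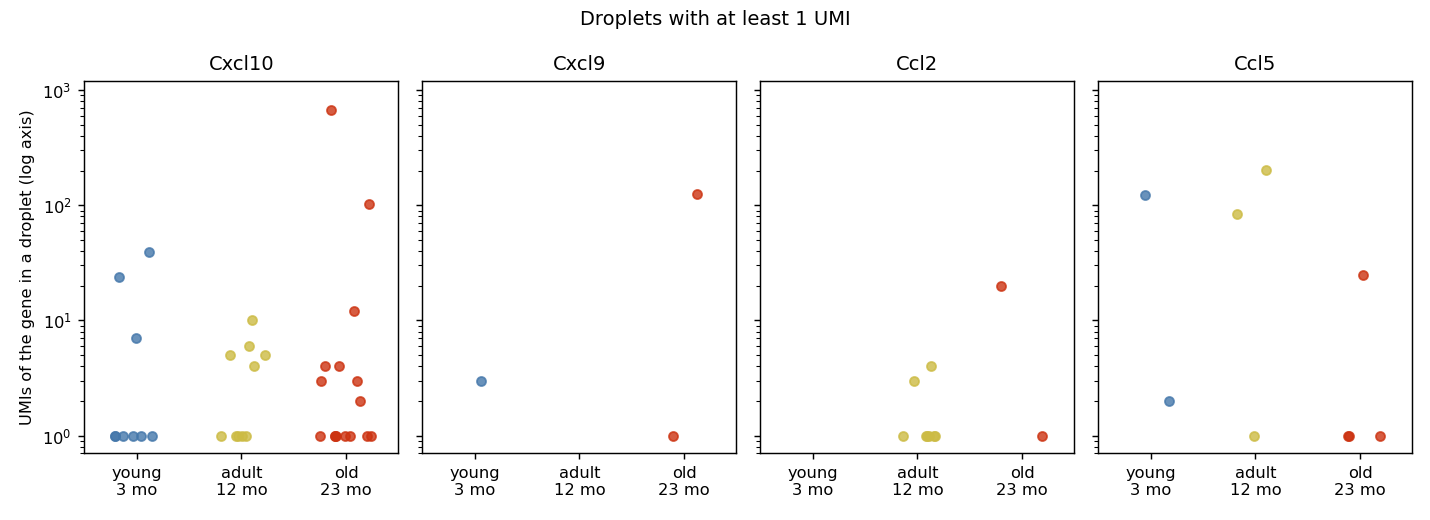
UMIs of Cxcl10, Cxcl9, Ccl2 and Ccl5 in each kept droplet with at least 1 UMI (log axis), by library. A single old droplet with 679 Cxcl10 UMIs and another with 102 stand above the rest, and the same first droplet holds 125 Cxcl9 UMIs and 20 Ccl2 UMIs.

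In Müller glia Cxcl10 and Cxcl12 were the 2 of 4 genes lower by 1.5-fold or more in the old library, beside 8.67% of all genes higher and 6.91% lower. Cxcl10 had 41, 2 and 13 UMIs (old to young 0.335, 0.165 to 0.637), of which 1 young droplet held 39 and 1 old droplet 12. Without these, 2 young UMIs and 1 old UMI were left, too few for a ratio. In separate settings the ratio turned to 6.63 with each cell classed by its own markers and to 11.5 under the stricter cell limits. Those limits leave out the young droplet, at 12.9% mitochondrial UMIs, and not the old one, at 6.80%. In bipolar cells Cxcl12 was the 1 of 2 genes past the fold, and lower, beside 7.66% higher and 10.2% lower, from 22 young and 5 old UMIs. A single young droplet held 20 of those 22, and without the richest droplets 2 UMIs were left on each side, too few for a ratio.

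Cxcl9, the other CXCR3 ligand, had 3 UMIs in 1 young droplet, 0 in the adult library and 126 in 2 old droplets. An adult count of 0 in 1957 cells allows a share of up to 0.153% of cells with a UMI at the floor of 3 counts (upper Clopper-Pearson limit 0.188%). Ccl2 had 0 UMIs in young, 13 in 8 adult and 21 in 2 old droplets. Of the 13 adult UMIs, 7 were in 2 droplets of the mixed cluster of microglia, macrophages, T and NK cells.

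Ccl5, a ligand made by T and NK cells, had 125, 287 and 28 UMIs in 2, 3 and 4 cells of the young, adult and old library. The mixed immune cluster, of 9, 27 and 14 cells, held 125, 286 and 25 of them. Single droplets held 123 young, 202 and 84 adult, and 25 old UMIs. Endothelial cells held 1 Ccl5 UMI in all, so that its level there was not measurable at this depth.

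**Figure D5:**
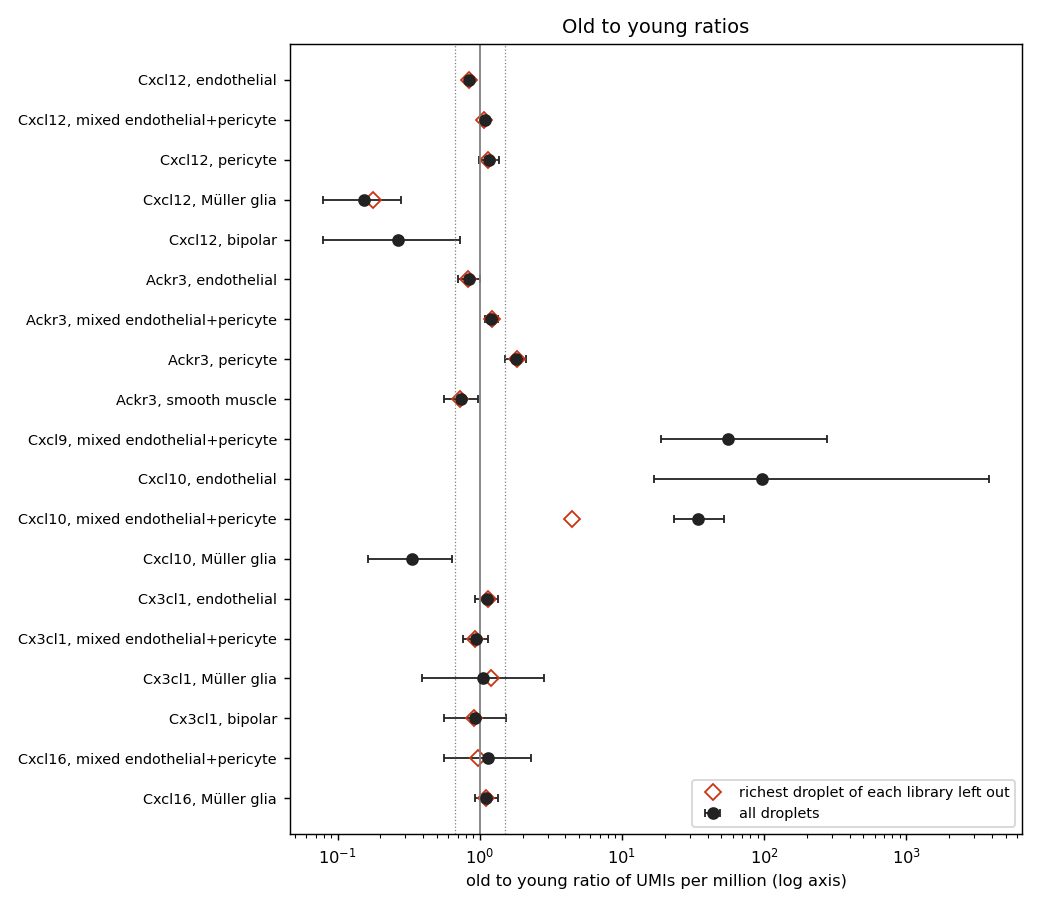
Ratio of old to young CPM (log axis) for each gene and class with at least 20 UMIs over the libraries compared, with 95% conditional intervals (black) and after leaving out the richest droplet of each library (red). Dotted lines mark 1.5-fold in each direction. Ccl2 in mixed droplets has no finite ratio and is not drawn, and red points are left out where 3 or fewer UMIs remained in both libraries or the young count was 0. Without the richest droplets Cxcl16 in mixed droplets moves from 1.14 to 0.970 and Ackr3 in pericytes from 1.79 to 1.82, while Cxcl10 in mixed droplets moves from 34.3 to 4.47.

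Over the 3 libraries Cxcr4, the receptor of CXCL12, had 79 UMIs in B cells (130 CPM, 103 to 162), 42 in the mixed immune cluster (103 CPM, 74.3 to 139), 35 in endothelial cells (3.41 CPM, 2.38 to 4.75) and 51 in mixed endothelial and pericyte droplets (4.34 CPM, 3.23 to 5.71). Cx3cr1 had 272 of its 275 UMIs in the mixed immune cluster (668 CPM, 591 to 752), where a single droplet gave 26 of the 30 young UMIs and another 36 of the 60 old ones. Ccr2 had 63 UMIs there, but single droplets gave 32 of 41 old and 17 of 21 adult UMIs. Cxcr3 and Cxcr6 stayed under 20 UMIs in every class.

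Other genes were taken from 5 lists of the chemokine pathway and 1 list of dissociation genes, in which 42 genes had enough UMIs in endothelial cells, 1 of them on 2 lists. From young to old 6 were higher, all of the pathway, and 5 lower, of which 3 were dissociation genes, beside 7.23% of all endothelial genes higher and 5.47% lower. Of 31 other ligands, 30 were in the matrices and 5 had enough UMIs. Cxcl1, a ligand for neutrophils, was the 1 past the fold, at 15 against 6 UMIs (ratio 2.16, 0.794 to 6.81), and Cxcl11 was not analysed here. The median log2 ratio of the 5 was 0.06, beside 0.02 over all endothelial genes. Of 22 receptors, 2 had enough UMIs and Cxcr4 was past the fold, at 15 against 7 UMIs (1.86, 0.712 to 5.38), with a median of 0.47. Both intervals include 1. Single droplets held 5 of the 15 old and 5 of the 7 young Cxcr4 UMIs, and without them the levels were 2.72 and 0.631 CPM.

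Of 6 proteases that cut chemokines, 3 had enough UMIs. Dpp4, which trims CXCL12 and CXCL10, was lower at 0.587 (0.320 to 1.05), and the median was −0.21. Adam10, a sheddase of CX3CL1 and CXCL16, was at 0.867 (0.779 to 0.965), not past the fold. Of 12 signalling partners 10 had enough UMIs. Arrb2, a beta-arrestin, was higher at 33 against 19 UMIs (interval of the ratio 0.830 to 2.80) and Gnai1, a G protein subunit, lower at 0.306 (0.0987 to 0.812), with a median of −0.03.

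Of 12 transcription factors, 11 had enough UMIs, with a median log2 ratio of −0.01 and none lower by 1.5-fold. Among those higher, Irf7, which amplifies the interferon response, went from 119 to 351 CPM (2.94-fold, 2.62 to 3.31) and Stat2 from 45.4 to 68.6 (1.51, 1.23 to 1.87). Irf1 and Nfkbia were level, at 0.995 (0.838 to 1.18) and 0.991 (0.937 to 1.05). The 12 dissociation genes, which rise while tissue is digested, had 3 lower and none higher, beside the same 5.47 and 7.23% of all endothelial genes. These were Fosb at 0.513 (0.482 to 0.545), Hspa1a at 0.608 (0.562 to 0.659) and Hspa1b at 0.311 (0.275 to 0.353), and the median was 0.12. In pericytes 1 of the 12 was higher and 4 lower, with a median log2 ratio of −0.17, beside 13.3% of all pericyte genes higher and 8.85% lower. The part of tissue handling in the old to young ratios was not tested.

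The genes with the most similar pattern over 7 classes and 3 libraries (21 points, Pearson correlation of log2 of CPM plus 1, among 11968 genes) were Mecom, Lef1 and Arap3 for Cxcl12 (r = 0.968, 0.964 and 0.954). For Ackr3 they were Igfbp7, Map3k20 and Gjc1 (0.982, 0.980 and 0.980), for Cx3cl1 Efr3b, Nova2 and Aqp11 (0.942, 0.935 and 0.925), and for Cxcl16 Abca8a, Dkk3 and Fxyd6 (0.945, 0.929 and 0.928). Cxcl10 came closest to Ifit3b, Wee1 and Atp6v0a2 (0.769, 0.757 and 0.750), on the few droplets above. The points share libraries and depth, and these values are descriptions. Dkk3 is 1 of the markers by which Müller glia were named.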

How the data were processed

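The files hold raw counts deposited by the authors, whole numbers that give the UMIs of a gene in a barcode. Per the labels' processing notes these were made with Cell Ranger 6.1.2 on mm10. Cells were called by Cell Ranger, with settings not given in the sources used here, and the files held 2491, 3243 and 2751 barcodes, more than the cells stated for each library in the study's methods. Barcodes outside the study's limits on genes and mitochondrial UMIs were still present, so those limits were applied (500 to 6000 genes, 1 to 20% mitochondrial UMIs), and Scrublet in scanpy 1.11.5 marked 8, 17 and 12 doublets, which were left out. Clusters with markers of both endothelial cells and pericytes remained, and whether they hold doublets was not tested.

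Cells were integrated and clustered in Seurat 5.3.0 (R 4.3.3) on 2000 features and 30 principal components at a resolution of 0.5, with 884 genes kept out of the features, among them the genes described. Clusters were named from marker lists. To count, a marker had to be detected in 20% of the cells and reach 25% of its top level over clusters. Names required 3 markers. More than 1 class with 50% of its markers gave a mixed cluster, but the smooth muscle cluster kept its name with 50% of the pericyte markers. A cluster of 243 cells, at a median of 2141 UMIs, met the marker rule with all the endothelial markers and was still left unnamed. The rule that kept it out of the endothelial class is not given here. Astrocytes needed Pax2, so that Müller glia kept their name. These choices followed a first look at the clusters.

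UMIs were summed per class and library. Intervals (95%) came from scipy 1.17.1. A gene was past the fold at 1.5-fold or more in either direction with at least 20 UMIs over the pair of libraries. A count of 0 was set against a floor of 3 counts. Leading genes of a droplet were ranked by fold over the rest of its class with 10 CPM added to both. The steps were tested on simulated data. Genes named are the 8 genes, listed pathway genes past the fold in endothelial cells, the receptors with at least 20 UMIs, and the 3 genes of highest correlation among those with at least 100 UMIs, and others named were chosen after their values were seen. The genes and the lists were chosen with earlier results of these data known. Alternatives were thinning, stricter limits, no doublet caller, other class rules, a resolution of 1.0, median-of-ratios scaling, and, added after seeing the data, leaving out rich droplets. Positions are from GENCODE M21 by gene identifier and promoters from RefSeq, which gave 5 of the 8 genes. Results for a few listed genes that met the rule are not reported here.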

Additional observations from a re-analysis of the deposited data

Results flagged for a closer look

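The old to young ratio of Ackr3 in pericytes divided by that in smooth muscle cells was 2.44, with 1.79 (1.51 to 2.13) in pericytes and 0.735 (0.559 to 0.965) in smooth muscle cells. The classes come from the same libraries. After thinning both ratios lay above 1, at 1.48 (1.11 to 1.95) in pericytes and 1.22 (0.704 to 2.15) in smooth muscle cells. The difference was not tested.

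The same quotient for Cxcl10 in endothelial cells over Müller glia was 287. It rests on 102 of 111 UMIs in 1 old endothelial droplet and 39 of 41 in 1 young Müller droplet, and the difference was not tested.

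Among barcodes called doublets and left out, 1 old barcode of 7034 UMIs held 48 Ccl2 UMIs, where the young doublets held 0. This is more than the 21 Ccl2 UMIs of all kept old cells, and the same barcode held 22 UMIs of Gbp2, 0 of Cxcl10 and 0 of Cldn5. Without the doublet caller it was classed with Müller glia, and it held 1 UMI of the Müller gene Rlbp1 and 0 of Rgs5. The adult doublets held 397 Cxcl12 UMIs in 14 barcodes and the young ones 155 in 8.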

How the results depend on the processing

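No paired analysis was possible because each age has 1 library and the shared number 1 marks no pair. For the same reason no library could be left out in turn. Of 447 values from alternatives, for 59 results, 369 stayed within the counting interval of the reported value (for counts, within 1.5-fold) and 11 values past the fold changed direction. Of 437 ratios, 42 in all lay on the other side of 1, 31 of them where the reported ratio was not past the fold. Old to young Cxcl12 in endothelial cells (0.837) moved to 0.973 with mixed droplets counted as endothelial, 0.887 with each cell classed by its own markers and 0.918 without cells carrying other markers, where Cx3cl1 moved from 1.12 to 0.919. Old to young Cxcl10 in endothelial cells (96.1) was at least 11.6 after thinning, 7.81 without droplets of 10 or more Cxcl10 UMIs and at least 2.58 without the richest droplets. Listed genes past 1.5-fold, 3 dissociation genes included, numbered 11, but 6 after thinning and 26 with no minimum beyond 1 UMI. Under stricter cell limits (1000 genes, 10% mitochondrial UMIs) Müller ratios turned to 2.40 (Cxcl12, old to young), 4.18 (Cxcl12, adult to young) and 11.5 (Cxcl10, old to young), the last also turning to 6.63 with cells classed by their own markers. In bipolar cells Cxcl12 turned to 1.02 (old to young) and 1.35 (old to adult) without the doublet caller and 2.96 (old to young) with own markers. Cxcl10 turned to 0.952 (adult to young, mixed droplets counted as endothelial), 0.909 (old to adult, endothelial, under both droplet removals) and 2.32 (adult to young, mixed droplets, without droplets of 10 or more). Apart from these constructions, the cause was not tested. Another 26 combinations, mostly of Cxcl9, Cxcl10, Ccl2 and Cxcl16, left 3 or fewer UMIs on each side and gave no value. The droplet removals were chosen after seeing the data.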

Other observations

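A young barcode left out for its 7640 genes held 15 Cxcl9 UMIs, where all kept young cells held 3. It had 45515 UMIs, with 182 of Cldn5, 286 of Rgs5, 49 of Isg15 and 60 of Rsad2. Counted over all barcodes, Cxcl9 had 18 young, 1 adult and 126 old UMIs.

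Among ligands outside the genes described, Pf4 and Ppbp, chemokines of platelets, were highest in the retinal pigment epithelium-like cluster, with 1390 and 548 UMIs over the libraries. That cluster had 1 young, 7 adult and 55 old cells. Ccr7 had 197 of its 276 UMIs in B cells. Ccrl2 was highest per UMI in pericytes, at 83.1 CPM from 147 of its 1279 UMIs.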
